A study of Mus musculus with 59 samples.

Results

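Knockdown of Acly in the presence of bempedoic acid (Bemp) was measured by RNA-seq in AML12 cells, an immortalized hepatocyte line from the liver of a mouse carrying a TGF-alpha transgene. The comparison holds 6 of the 24 AML12 libraries and of the 59 libraries of the series, chosen by their labels. The siAcly Bemp group has libraries 22, 23 and 87 and the siC Bemp group has libraries 10, 11 and 83, numbered as their labels number them. Cells took up siRNA against Acly (siAcly) or a control siRNA (siC) 4 h after seeding, and 30 µM Bemp was added 24 h later for 16 h. By their labels all 6 libraries carry the drug and the groups differ in the siRNA alone, which the values of library 11 do not bear out. The same knockdown was also made in untreated cells (Ut) and under 1000 µM hydroxycitrate (HC) or 10 µM SB-204990 (SB), in 6 libraries each. No label says whether the 3 libraries of a group came from separate cultures, and p-values measure the spread between these libraries, which may be technical. All libraries came from 1 cell line and the methods name no second siRNA against Acly, so loss of Acly and other effects of that reagent cannot be told apart.

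ATP citrate lyase, the product of Acly, splits cytosolic citrate into oxaloacetate and acetyl-CoA, the carbon source of fatty acid and cholesterol synthesis and a donor for protein acetylation. Bempedoic acid is a prodrug that inhibits this enzyme once it has been joined to CoA, a step that liver carries out with the very long chain acyl-CoA synthetase encoded by Slc27a2. The knockdown and the drug thus bear on the same enzyme, at the level of its mRNA and of its activity. In these cells Slc27a2 was listed at 0 in 21 of the 24 libraries and in 4 of the 6 Bemp libraries. Its value was under 1 in libraries 1 and 11 and 12.2 in siC Bemp 83, the one library in which it stood above the level of a few reads.

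Acly was read first in every library, as the targeted gene. It lies at chr11:100476353-100528000 (GRCm38, minus strand). Normalized values, gene counts scaled by the authors for library size, were 271 in siAcly Bemp 22, 441 in siAcly Bemp 23 and 311 in siAcly Bemp 87. In the siC Bemp group they were 2947 in library 10, 2883 in library 83 and 404 in library 11. Libraries 10 and 83 were thus far above the siAcly group, while library 11 lay between siAcly Bemp 87 and siAcly Bemp 23, so the labelled groups overlapped. Over all AML12 cells, the 11 siC libraries other than library 11 ranged from 2576 to 3860 and the 12 siAcly libraries from 215 to 599. Over the 6 Bemp libraries the siAcly mean was 341 ± 89.0 and the siC mean 2078 ± 1450 (SD, n = 3 each). The difference in means gave p = 0.2 in a two-sided exact permutation test, whose smallest possible p was 0.1. Without library 11 the siC mean was 2915 ± 45.3 (SD, n = 2) and Acly in siAcly cells was 11.7% of it, or 8.54-fold lower. This last value is a description without a test, since the Acly value itself was the reason to leave the library out.

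**Figure D1:**
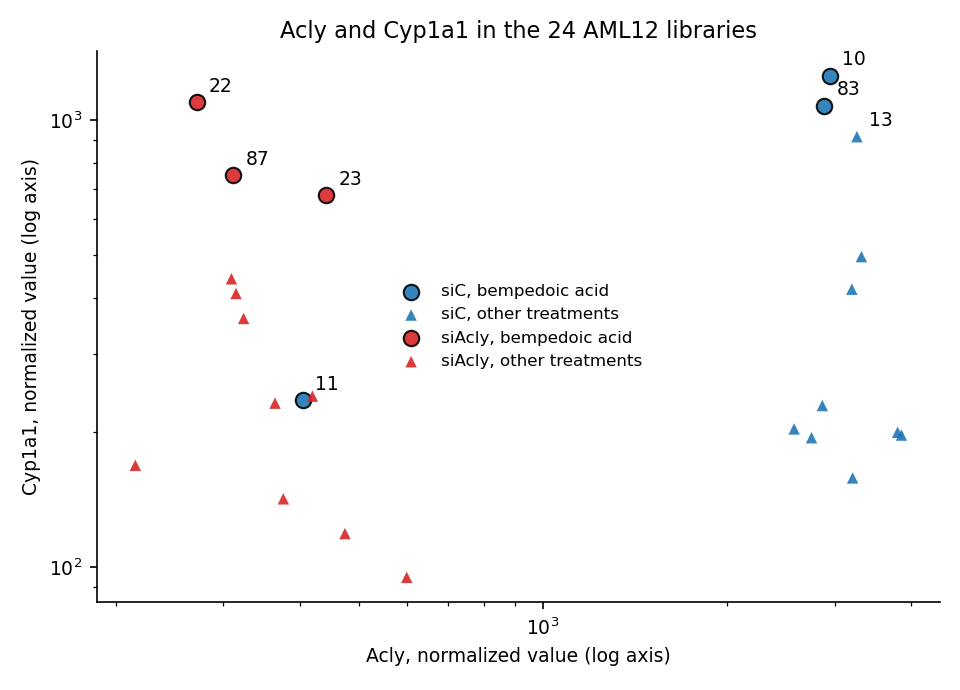
Normalized values of Acly (x axis, log scale) and Cyp1a1 (y axis, log scale) in the 24 AML12 libraries, with 1 point per library, colour for the siRNA and outlined circles for libraries labelled Bemp. Library 11, labelled siC Bemp, lies at 404 for Acly and 236 for Cyp1a1, among siAcly libraries without Bemp, and library 13, labelled siC Ut, lies at 917 for Cyp1a1.

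A second gene also set library 11 apart from its label. Cyp1a1, which encodes a cytochrome P450 induced through the aryl hydrocarbon receptor, was read here as a mark of the treatment, and it was chosen after its values were seen. It was 1095 in siAcly Bemp 22, 678 in siAcly Bemp 23 and 753 in siAcly Bemp 87, and 1255 and 1075 in siC Bemp 10 and 83. In library 11 it was 236, inside the range of 94.8 to 495 of the 17 libraries that are not labelled Bemp, leaving out library 13. Library 13, labelled siC Ut, had 917 and an Acly value of 3263. Library 11 thus had low Acly without high Cyp1a1, and library 13 had high Cyp1a1 without a Bemp label. Whether labels were exchanged was not tested. Both libraries were kept in their labelled groups, and the counts of genes are given with and without library 11, whereas gene groups are described mostly without it. For Cyp1a1 itself the log2 fold change of siAcly against siC was 0.27 with all 6 libraries and −0.50 without library 11 (standard error 0.69 each, limma adjusted p = 0.972 and 1.00). Its direction was thus set by library 11.

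The promoter of Cyp1a1 is shown because the gene marks the Bemp libraries, beside that of Cyp1b1, another P450 gene of the same receptor. Each runs from 250 bases before to 50 bases after the RefSeq start site (GRCm38.p6), at chr9:57697363-57697662 on the plus strand and at chr17:79715012-79715311 on the minus strand. Capitals mark the 5-letter core of the receptor's response element, GCGTG, or CACGC where it reads on the other strand.
Cyp1a1: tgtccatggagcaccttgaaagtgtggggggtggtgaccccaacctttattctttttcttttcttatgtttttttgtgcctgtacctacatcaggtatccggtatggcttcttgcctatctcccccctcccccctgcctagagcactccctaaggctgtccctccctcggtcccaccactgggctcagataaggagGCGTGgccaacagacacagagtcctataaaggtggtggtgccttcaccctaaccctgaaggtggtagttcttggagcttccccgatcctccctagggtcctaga
Cyp1b1: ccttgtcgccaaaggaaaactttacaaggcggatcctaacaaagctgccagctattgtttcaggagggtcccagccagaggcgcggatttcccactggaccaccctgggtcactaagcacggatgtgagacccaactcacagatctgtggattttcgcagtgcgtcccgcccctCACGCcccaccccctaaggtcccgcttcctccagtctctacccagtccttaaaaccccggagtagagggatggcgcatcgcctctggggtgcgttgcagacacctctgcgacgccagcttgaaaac
Either window held 1 match, and 32.4% of 32851 RefSeq promoters of this length held at least 1 on either strand, so a match in this window is common. Cyp1b1 was 117 and 126 in siC Bemp 10 and 83, 64.1 in library 11 and 79.4, 49.9 and 119 in siAcly Bemp 22, 23 and 87. Libraries not labelled Bemp ran from 18.9 to 90.7. Cyp1b1 therefore separated the Bemp libraries less well than Cyp1a1 did.

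The AML12 libraries also fell into 3 sets that did not follow the siRNA or the treatment. On the first 2 principal components of all 24 libraries (31.0% and 19.9% of the variance), set a held 5 siC and 3 siAcly libraries, set b held 4 and 4, and set c held 3 and 5. Albumin (Alb), the main secreted protein of hepatocytes, ranged from 11853 to 13843 in set a, from 1225 to 5522 in set b and from 372 to 2840 in set c. Libraries 10, 11 and 22 were in set a, library 23 in set b, and libraries 83 and 87 in set c. Alb was accordingly 12594, 2910 and 702 in siAcly Bemp 22, 23 and 87, against 13082 in siC Bemp 10, 12068 in library 11 and 1717 in siC Bemp 83. Each group thus spanned most of the range of Alb. Without library 11 only sets a and c hold Bemp libraries of both siRNAs, as the pairs 22 and 10, and 87 and 83. The sets follow the library numbers in the main. Set c holds all 7 libraries numbered 81 to 87 and library 15, set a holds libraries 1, 4, 7, 10, 11, 16, 19 and 22, and set b holds 2, 5, 8, 13, 14, 17, 20 and 23. What the numbers stand for is not given in the sources used here.

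**Figure D2:**
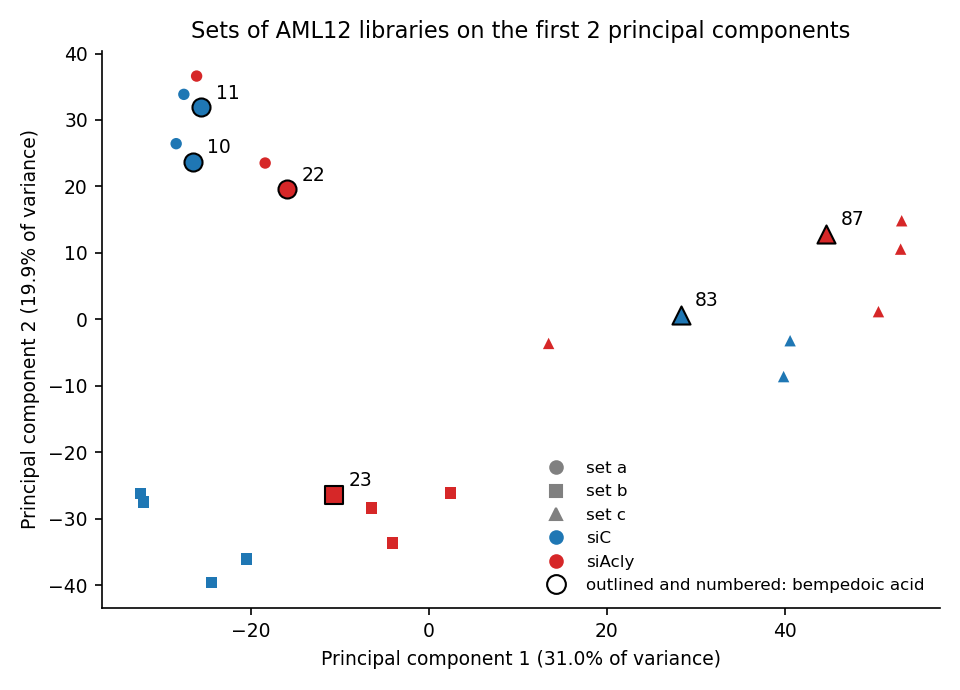
The 24 AML12 libraries on principal components 1 and 2 of log2 values (31.0% and 19.9% of the variance), with colour for the siRNA, shape for the 3 sets, and the Bemp libraries outlined and numbered. Libraries 10, 11 and 22 lie in set a, 23 in set b, and 83 and 87 in set c.

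The hepatocyte label held for the secreted proteins and was shared with some of the bile duct markers. All 10 hepatocyte markers were measured, with summed values of 46020 to 114681 in siC Bemp and 40183 to 126972 in siAcly Bemp cells. Of 7 bile duct markers 6 passed the filter on low values, summing to 21469 to 26157 and 19446 to 35204. Krt19, a keratin of bile duct cells, ran from 7181 to 11455 in siC and from 9416 to 18744 in siAcly Bemp libraries. Spp1, which the list of collagens and matrix also holds, ran from 7171 to 13923 and from 5261 to 10392. Other bile duct markers were low or absent. Cftr ran from 8.12 to 36.2 over the 6 libraries, and Epcam, which did not pass the filter, was 0 in all but library 23 (1.16). Markers of other liver cells were near 0. Those of stellate cells or fibroblasts summed to at most 42.7, with Col1a2, Col3a1 and Lrat at 0, those of Kupffer cells or macrophages to at most 43.7, with Adgre1, Clec4f and Marco at 0, and those of endothelial cells to at most 10.0, with Cdh5, Kdr and Lyve1 at 0. Estimated depth was 8427850 to 15224800 reads in the 6 Bemp libraries.

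As labelled, no gene passed between siAcly Bemp and siC Bemp cells. By limma, 0 of 12296 genes (0%) had an adjusted p under 0.05 with all 6 libraries, Acly included (log2 fold change −2.17, standard error 0.48, adjusted p = 0.661). Before adjustment 484 genes were past 0.05 (253 higher and 231 lower in siAcly cells), fewer than the 614.8 that 5% of the genes would give. With p under 0.05 before adjustment and a change of 1 or more on the log2 scale, the count was 52 (34 higher, 18 lower). Without library 11 the adjusted limit was passed by 1 gene (0.00813%), which was Acly itself (log2 fold change −3.12, standard error 0.27). Since its value chose the library to leave out, that is a description and no gene passed beyond it. The unadjusted count was then 364 genes and that with the log2 limit 92 (68 higher, 24 lower). Hardly any gene could thus be told apart from the spread between libraries.

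With set as a term in the fit, and library 11 left out, 16 genes (0.13%) passed, 8 higher and 8 lower. The sets were found in these data, so this fit was added after the data were seen and the 15 genes other than Acly were chosen after their values were seen. Library 23 has no siC Bemp library in its set here, and enters through the level of set b in the other groups. The count rested on each of the 5 libraries, since it was 8 without siC Bemp 10, 2 without siC Bemp 83, 3 without siAcly Bemp 22, 4 without siAcly Bemp 23 and 1 without siAcly Bemp 87. With library 11 put back it was 0, and 1201 genes had an unadjusted p under 0.05. When libraries 13 and 15, which stand apart in the untreated groups, were left out of the fit as well, 73 genes passed (46 higher, 27 lower), all 16 among them. Without overlap between the groups were 12 of the 15 genes, against 13.4% of all genes tested, when library 11 was left out, and 6 of the 15, against 7.18%, when it was kept. Since the 15 were chosen for a difference between these same groups, a share above that of all genes follows from the choice.

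**Figure D3:**
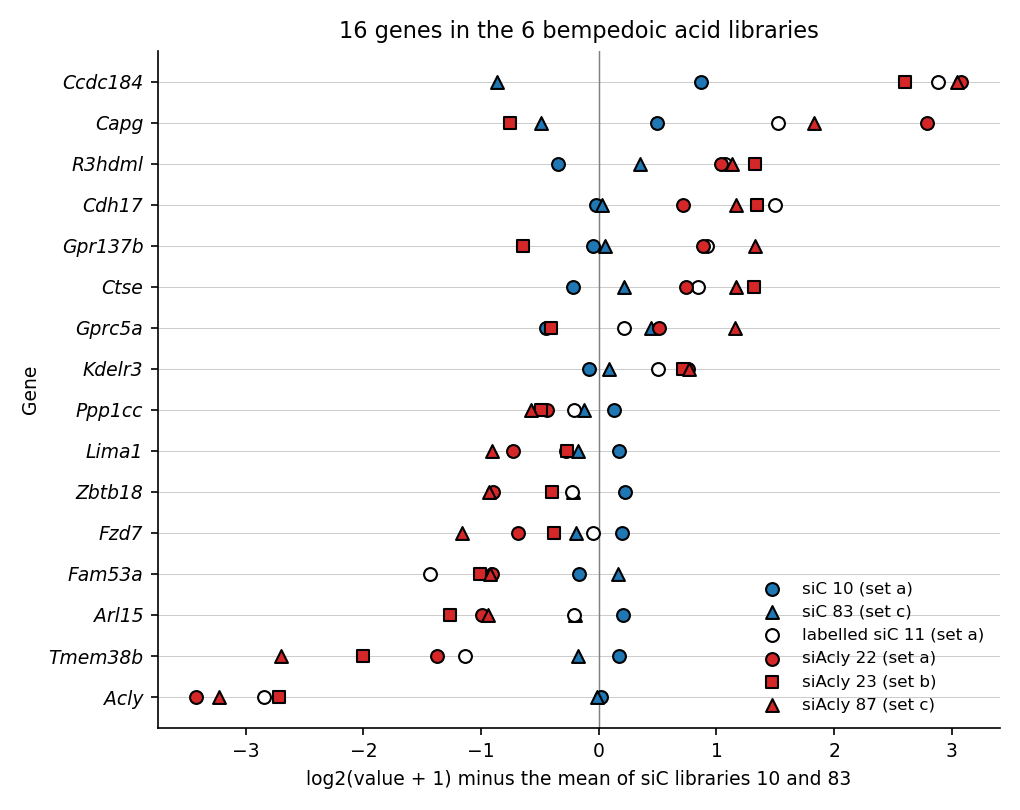
Log2(value + 1) of the 16 genes in each of the 6 Bemp libraries, relative to the mean of siC Bemp 10 and 83, with 1 point per library, colour for the siRNA, shape for the set and a white circle for library 11. Library 11 lies nearer to the siAcly mean for Acly, Tmem38b, Cdh17 and R3hdml, and nearer to libraries 10 and 83 for Zbtb18, Fzd7 and Ppp1cc. Both groups compared here mix sets, while library 11 is in set a.

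The genes that fell include a channel, a receptor and signalling enzymes. Tmem38b (chr4:53826045-53862019), which encodes a cation channel of the endoplasmic reticulum, was 102, 65.7 and 40.2 in siAcly Bemp 22, 23 and 87 against 301 and 236 in siC Bemp 10 and 83, and 121 in library 11. Every siAcly library was below every siC library. The log2 fold change was −2.0 (standard error 0.28, limma adjusted p = 0.00703 with set as a term), or −2.03 (adjusted p = 0.482) without that term. Arl15 (chr13:113794505-114157461), a small GTPase, was 56.7, 46.8 and 58.6 against 131 and 98.3, with 97.8 in library 11, and the groups did not overlap with or without that library (log2 fold change −0.97, standard error 0.17, adjusted p = 0.0271). Fzd7 (chr1:59482424-59486955), a receptor for Wnt ligands, was 112, 139 and 80.4 against 208 and 158, with 175 in library 11 (−0.90, standard error 0.17, adjusted p = 0.0469). Library 11 here sided with the siC group. Ppp1cc (chr5:122158278-122175273), a catalytic subunit of protein phosphatase 1, was 1718, 1662 and 1563 against 2555 and 2135, with 2015 in library 11 (−0.53, standard error 0.09, adjusted p = 0.0271).

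Zbtb18 (chr1:177442351-177450764), a transcriptional repressor with zinc fingers, was 264, 375 and 258 in siAcly Bemp 22, 23 and 87 against 576 and 423 in siC Bemp 10 and 83, with 421 in library 11 (log2 fold change −0.85, standard error 0.16, limma adjusted p = 0.0428 with set as a term). The actin-binding protein gene Lima1 (chr15:99778470-99875456) was 343, 474 and 304 against 646 and 506, with 471 in library 11 (−0.72, standard error 0.12, adjusted p = 0.0271). For Fam53a (chr5:33600347-33629635) the values were 320, 299 and 318 against 538 and 677 (−0.92, standard error 0.18, adjusted p = 0.0469). Library 11, at 223, lay below all siAcly libraries for Fam53a, so the groups as labelled overlapped.

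The 8 genes that rose include one of cell adhesion and one of the actin cytoskeleton. Cdh17 (chr4:11758147-11817895), a cadherin of liver and intestine, was 592, 914 and 808 in siAcly Bemp 22, 23 and 87 against 354 and 366 in siC Bemp 10 and 83. Library 11 was the highest of all 6 for this gene, at 1016. The log2 fold change was 1.04 (standard error 0.17, limma adjusted p = 0.0219 with set as a term) and 0.58 with all 6 libraries and no such term (adjusted p = 0.933). Capg (chr6:72544391-72562983), which caps actin filaments, was 454, 38.01 and 233 against 91.6 and 45.6, with 188 in library 11. Library 23 was thus the lowest, but Capg was low throughout set b, at 22.3, 12.7, 16.5 and 16.7 in the siC libraries 2, 5, 8 and 13. Within sets the difference was 2.30 on the log2 scale in set a (22 minus 10) and 2.33 in set c (87 minus 83), and the fit gave 2.13 (standard error 0.33, adjusted p = 0.0173). Without the term for set it gave 1.29 (adjusted p = 1.00).

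Gpr137b (chr13:13357620-13394014), a protein of the lysosomal membrane, showed the same pattern, at 531, 183 and 722 against 277 and 297, with 544 in library 11, inside the siAcly range, and 109 to 134 in the siC libraries of set b. Its log2 fold change was 1.02 (standard error 0.18, limma adjusted p = 0.0271 with set as a term). Gprc5a (chr6:135065651-135084709), an orphan receptor induced by retinoic acid, was 2191, 1160 and 3429 against 1128 and 2097, with 1780 in library 11, and its groups overlapped outside the sets (0.81, standard error 0.15, adjusted p = 0.0329). The aspartic protease gene Ctse (chr1:131638306-131675505) was 164, 245 and 221 against 84.01 and 114, with 176 in library 11, inside the siAcly range (1.00, standard error 0.17, adjusted p = 0.0258). Kdelr3 (chr15:79516411-79527739), a receptor that returns proteins to the endoplasmic reticulum, was 381, 371 and 383 against 212 and 239, with 320 in library 11 (0.72, standard error 0.13, adjusted p = 0.0313). The siAcly values of Kdelr3 lay close together, all above library 11.

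R3hdml (chr2:163492318-163502612) was 228, 278 and 242 against 86.2 and 140, with 232 in library 11, inside the siAcly range (log2 fold change 1.1, standard error 0.19, limma adjusted p = 0.0271 with set as a term). Ccdc184 (chr15:98167158-98170134), a gene with few reads, had 14.4, 10.1 and 14.03 in siAcly Bemp 22, 23 and 87 against 2.33 in siC Bemp 10 and 0 in siC Bemp 83. Library 11 again lay with the siAcly group, at 12.5. The fit gave 2.97 on the log2 scale (standard error 0.52, adjusted p = 0.0271), which rests on siC values near 0 and depends on the pseudocount. Over the 15 genes, library 11 was nearer to the siAcly mean for 9 and nearer to the mean of libraries 10 and 83 for 6, while over all genes tested it was nearer to the siAcly mean for 43.9%. These means mix sets, whereas library 11 is in set a. Among set a libraries of all treatments, Arl15, Gprc5a, Lima1, Ppp1cc and Zbtb18 in library 11 lay between siC and siAcly values. Ppp1cc was 2015, against 1718 to 1987 in siAcly 16, 19 and 22 and 2555 to 2735 in siC 1, 4, 7 and 10. Fzd7, at 175, lay within the siC range of 144 to 208.

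The knockdown under the other treatments shares no library with the one under Bemp. All 15 had the direction they had under Bemp in Ut, HC and SB, where 74.2%, 77.2% and 57.8% of all genes did. They passed limma's adjusted limit in that direction for 11 in Ut (2.46% of all genes passed), 13 in HC (0.927% passed) and 9 in SB (0.61% passed). The Ut groups hold libraries 13 and 15, without which the count over all genes in Ut was 79 (0.642%) rather than 303. The term for set and the spread of each gene are estimated over all groups and so are common to these comparisons. The 15 were chosen partly for a small spread, so passing more often than all genes follows in part from the choice. Within sets and without any fit, HC and SB each give 3 differences of a siAcly and a siC library, and 89 of the 90 differences over the 15 genes had the sign seen under Bemp, against 61.04% over all genes. The exception was Fzd7 in set a under SB, at a difference of 0.00. Tmem38b, Zbtb18, Fam53a, Capg, Cdh17, Ctse, Gpr137b and Gprc5a passed in all 3 conditions. Fzd7 and Ccdc184 passed in none of them, with log2 fold changes of −0.44, −0.35 and −0.34 for Fzd7 and 1.70, 1.01 and 0.39 for Ccdc184 in Ut, HC and SB.

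**Figure D4:**
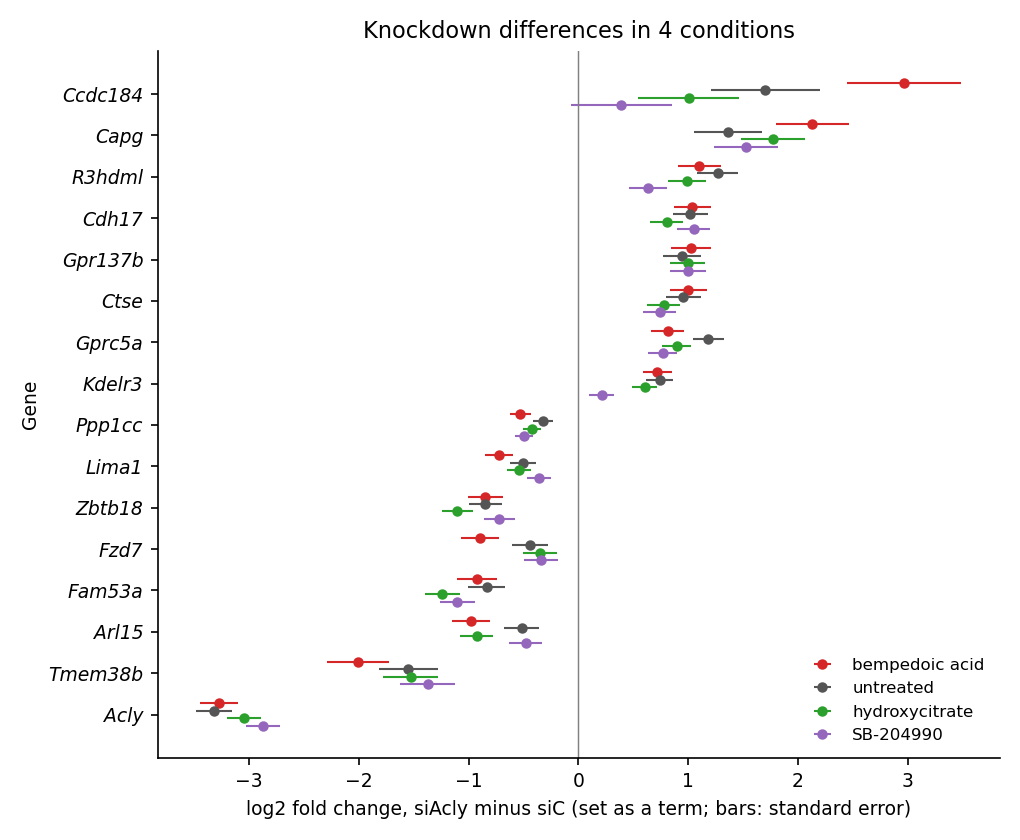
Log2 fold changes of siAcly against siC cells for the 16 genes under Bemp, in untreated cells and under HC and SB, from the fit with set as a term and without library 11, with bars for the standard error. All 16 genes point the same way in the 4 conditions, and the estimates for Ccdc184 run from 0.39 under SB to 2.97 under Bemp.

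Whether Bemp altered the effect of the knockdown was tested as a difference of differences. Without library 11 the limma count at an adjusted p of 0.05 was 0 for Bemp against each of Ut, HC and SB, with 159, 41 and 100 genes past 0.05 before adjustment. With set as a term the count passing was also 0 for each, with 176, 110 and 272 genes at the unadjusted limit. For Acly the log2 fold change under Bemp differed from that in Ut by 0.04 (95% interval −0.47 to 0.55), from that under HC by −0.23 (−0.72 to 0.26) and from that under SB by −0.40 (−0.89 to 0.08). For Cdh17 the differences were 0.02 (−0.48 to 0.51), 0.23 (−0.24 to 0.70) and −0.01 (−0.48 to 0.46), and for Tmem38b −0.46 (−1.28 to 0.37), −0.47 (−1.26 to 0.31) and −0.63 (−1.42 to 0.16). These intervals include 0 and also differences of more than 0.4 in size, so likeness of the conditions is not shown. Ccdc184 had differences of 1.96 (0.51 to 3.42) against HC and 2.58 (1.12 to 4.03) against SB, which did not pass (adjusted p = 1.00 and 0.953).

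Genes that make or use acetyl-CoA and its precursors were otherwise near their siC level. With set as a term and without library 11, 8 of the 18 members tested were higher and 10 lower (median log2 fold change −0.01, against 0.00 over all genes, of which 50.6% were higher). Without the term for set 12 were higher with all 6 libraries and 13 without library 11 (medians 0.06 and 0.09). Besides Acly, Slc16a1, which encodes the transporter for lactate and pyruvate MCT1, came closest to the limit. It was 852, 849 and 810 in siAcly Bemp 22, 23 and 87 against 1509 and 1042 in siC Bemp 10 and 83 and 1313 in library 11, so the groups did not overlap with or without library 11 (−0.61, standard error 0.13, adjusted p = 0.0604). The mitochondrial citrate carrier Slc25a1 had 0.16 (standard error 0.16) and Acss2, which makes cytosolic acetyl-CoA from acetate, −0.14 (standard error 0.23). Citrate synthase (Cs) had −0.01, the aconitase Aco1 −0.17, the isocitrate dehydrogenases Idh1 and Idh2 −0.13 and −0.07, and the malate dehydrogenases Mdh1 and Mdh2 0.23 and 0.03. Malic enzyme (Me1) had 0.08, the pyruvate dehydrogenase subunits Pdha1 and Pdhb −0.09 and 0.09, the carnitine acetyltransferase Crat −0.01, the thiolases Acat1 and Acat2 0.16 and −0.06, and the dicarboxylate transporter Slc13a3 0.38. None of these passed, with adjusted p of 0.620 or more.

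Pathway lists are described by their counts and medians from the same fit, beside 9.29% of all genes at an unadjusted p under 0.05 (4.81% higher, 4.47% lower). No member other than Acly passed the adjusted limit in any of the 27 lists. Genes of cholesterol synthesis, which uses cytosolic acetyl-CoA, had a median of 0.08 with 16 of 25 higher and none at the unadjusted limit, while in Ut, HC and SB the medians were 0.43, 0.36 and 0.36. Ebp, a late enzyme of the pathway, had 0.09 (standard error 0.19) and Srebf2, its transcription factor, −0.08 (standard error 0.26). Without the term for set the cholesterol median was 0.28 with all 6 libraries and 0.29 without library 11, with 23 of 25 higher in both. Whether the list differs between the conditions was not tested. Fatty acid synthesis genes had a median of −0.14 with 9 of 24 higher, and their within-set medians were −0.40 in set a and 0.01 in set c. Scd2, a desaturase, had −0.37 (standard error 0.28) and the acyl-CoA synthetase Acsl5 0.23 (standard error 0.11). Acyl-CoA synthetases had a median of −0.08 over 8 genes, with Acsl4 at −0.30 (standard error 0.24). Slc27a2, which encodes the activating enzyme of Bemp, did not pass the filter on low values and is not among the 8.

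Genes of fatty acid oxidation were lower for 24 of 28 members (median −0.15), as in Ut, HC and SB (−0.12, −0.15 and −0.15). At the unadjusted limit 4 were lower and none higher. Cpt1a, which starts the import of long-chain fatty acids into mitochondria, was 4290, 5014 and 4798 in siAcly Bemp 22, 23 and 87 against 6277 and 5829 in siC Bemp 10 and 83, with 4933 in library 11 (log2 fold change −0.39, standard error 0.11, limma adjusted p = 0.176). Ppara, the nuclear receptor that drives this pathway, was 154, 115 and 137 against 338 and 155, with 261 in library 11 (−0.75, standard error 0.22, adjusted p = 0.239). Library 83 thus had hardly more Ppara than library 22. Gluconeogenesis genes were lower for 8 of 9 (median −0.33), with Pck2 at −0.13 (standard error 0.13) and the glucose 6-phosphate transporter gene Slc37a4 at −0.35 (standard error 0.16). Subunits and partners of AMPK, a kinase that bempedoic acid has been reported to activate, were lower for 7 of 10 (median −0.16). Of these Prkab2, Prkag2, Strada and Camkk2 were at the unadjusted limit, with −0.74, −0.36, −0.38 and −0.43, while the most abundant members Prkab1 and Cab39 had −0.04 and 0.01.

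Targets of p53, which halts the cell cycle after damage, were higher for 22 of 25 members (median 0.25), and 7 of the 25 were at the unadjusted limit, all higher. The medians of the within-set differences were 0.29 and 0.35, and those in Ut, HC and SB 0.49, 0.31 and 0.40. With all 6 libraries and no term for set the median was 0.11. Cdkn1a, the inhibitor p21 of cyclin-dependent kinases, was 4806, 3034 and 4213 in siAcly Bemp 22, 23 and 87 against 2159 and 2711 in siC Bemp 10 and 83, and 3610 in library 11 (log2 fold change 0.87, standard error 0.25, limma adjusted p = 0.194). Btg2, an antiproliferative gene, was 879, 616 and 639 against 397 and 368, and 776 in library 11 (0.90, standard error 0.32, adjusted p = 0.338). Library 11 lay within the siAcly range for both. Trp53 itself, which the list also holds, had 0.03 (standard error 0.16) and Ccng1 0.53 (standard error 0.21). Cell cycle genes had a median of 0.03 under Bemp, with 23 of 38 higher and none at the unadjusted limit, beside −0.38, 0.06 and 0.03 in Ut, HC and SB. The Ut medians of all lists include libraries 13 and 15. In siAcly Ut 15 Cdkn1a was 11695, against 3359 and 5051 in siAcly Ut 14 and 84. Ccnd1 had 0.18 and Cdk4 −0.04. Inhibitors of cyclin-dependent kinases had a median of 0.12 over 7 genes, with Cdkn1b at −0.25.

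The amino acid stress response, driven by ATF4, had 21 of 27 members higher (median 0.10), with the serine synthesis genes Psat1 and Phgdh at −0.15 and 0.10, beside medians of 0.48, 0.23 and 0.08 in Ut, HC and SB. Its direction under Bemp turned with the term for set, without which 13 of 27 were higher with all 6 libraries (median −0.02) and 9 without library 11 (median −0.06). Interferon response genes were higher for 19 of 26 (median 0.21, within-set medians 0.44 and 0.31), with Cxcl10, a chemokine, at 137, 66.0 and 73.7 in siAcly Bemp 22, 23 and 87 against 41.9 and 29.0 in siC Bemp 10 and 83, and 95.2 in library 11 (1.36, standard error 0.30, limma adjusted p = 0.0762). The more abundant Bst2 and Irf1 had 0.22 and −0.07. Coagulation and fibrinolysis genes, secreted by hepatocytes in the main, were split, with 5 higher and 2 lower of 22 at the unadjusted limit (median −0.05). Without the term for set the median was −0.63 with all 6 libraries and −0.17 without library 11. Of these F3, the tissue factor that starts clotting, was 387, 145 and 370 against 210.0 and 204.0, with 419 in library 11, and Serpind1, a thrombin inhibitor, was 601, 392 and 384 against 374 and 218, with 539 in library 11 (adjusted p = 0.0837 and 0.0875). Serpinc1, which encodes antithrombin, was among the lower, at a mean of 1.68 in siAcly against 11.5 in siC Bemp libraries without library 11. It had few reads, with a mean of 3.81 over the 24 AML12 libraries, so this difference rests on values near 0. In the TGF-beta list 1 of 20 was higher and 4 lower at that limit (median 0.02), and without the term for set the median was −0.11 with all 6 libraries and −0.16 without library 11. Its ligand Tgfb2 was 144, 140 and 149 against 225 and 236, with 199 in library 11, so those groups did not overlap (−0.67, standard error 0.21, adjusted p = 0.265).

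The lists of aryl hydrocarbon receptor targets and of cytochromes P450 had medians under 0, unlike NRF2 targets, of which 17 of 24 were higher. The within-set medians of the NRF2 list, which also holds the NRF2 gene Nfe2l2, were 0.39 in set a and −0.04 in set c. At the unadjusted limit Txnrd1 was higher and Mgst1 lower. The list of receptor targets had a median of −0.20 over 10 genes, with Ugt1a6a at −0.41 (standard error 0.19) and Gsta1 at 0.89 (standard error 0.42). Its 10 genes include the receptor gene Ahr itself, at −0.69 (standard error 0.30), and that of its partner Arnt, at −0.14. Cytochromes P450 had a median of −0.26 over 16 genes, with Cyp2j6 and Cyp2s1 at 0.18 and 0.04. Hepatocyte transcription factors had −0.14 over 21, with Hnf4a at 0.09, and hepatocyte secreted proteins −0.02 over 22, with within-set medians of 0.60 and −0.52. The medians of the other lists were 0.22 for lipid droplet genes, 0.16 for NRF2 targets, 0.10 for collagens and matrix, 0.08 for cytosolic heat shock chaperones, 0.07 for chaperones of the endoplasmic reticulum, 0.06 for oxidative phosphorylation, 0.00 for glycolysis, −0.07 for histone and protein acetylation and −0.11 for inflammation. Without the term for set, with all 6 libraries and then without library 11, the medians were −0.54 and −0.40 for cytochromes P450, 0.25 and 0.17 for glycolysis, −0.24 and −0.09 for hepatocyte secreted proteins, 0.03 and −0.01 for acetylation and −0.03 and −0.05 for the cell cycle. For 14 of the 27 lists the medians of the within-set differences, 22 minus 10 and 87 minus 83, had opposite signs.

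**Figure D5:**
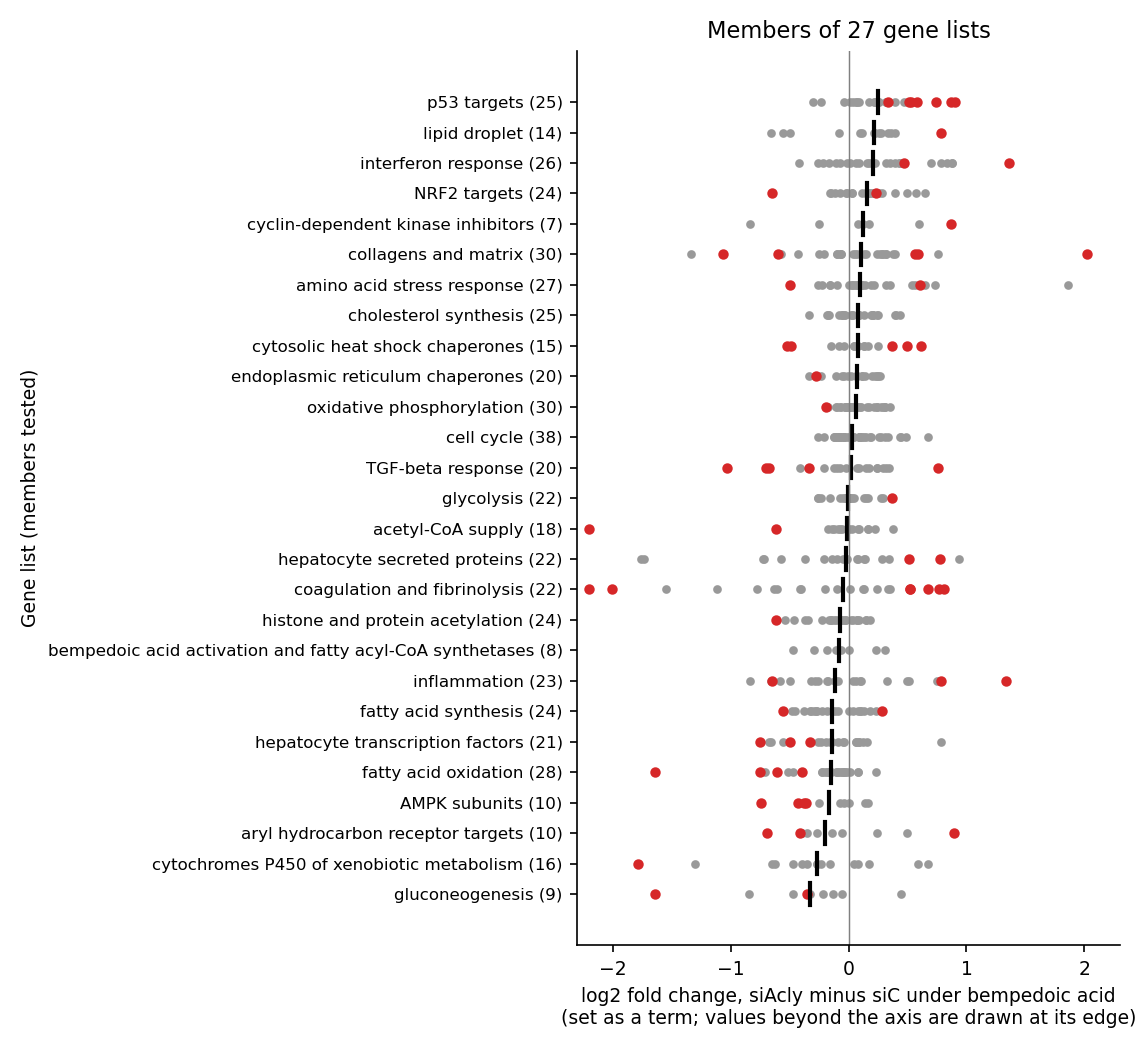
Log2 fold change of each tested member of the 27 gene lists under Bemp (x axis), from the fit with set as a term and without library 11, with a bar at the median of each list and red points for an unadjusted p under 0.05. Medians run from −0.33 for gluconeogenesis to 0.25 for p53 targets.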

How the data were processed

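RNA was sequenced from AML12 cells by the authors, who aligned reads to mm10 and deposited gene counts normalized by the median of ratios with DESeq2. These deposited values are a signal and no longer counts. The value of a single read differed between genes of a library, which leaves the reads behind each value unknown, and no count model was run. Tables of mouse tissues were not used here. Library depth was estimated as the sum of values over the most frequent value between 0 and 2.

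A pseudocount of 1 was added before the log2 step, which understates changes of genes with low values. The 12296 of 24972 genes that reached 10 in 3 libraries or more were tested with limma 3.58.1 in R 4.3.3, all 8 AML12 groups in 1 fit, with a trend on the mean and Benjamini-Hochberg adjustment over all genes at 0.05. Differences of differences were contrasts of that fit. Acly was compared by an exact permutation test. The fit without set was tested on simulated data that held no differences between sets. That test therefore does not bear on the spread between sets. Library sets were found by k-means (3 sets) on 2 principal components of the 24 libraries, after the data were seen. Promoters were taken from RefSeq and gene positions from GENCODE M21.

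The comparison, the genes and the 27 lists were chosen with earlier results of these data known. Genes were named by a rule. It took Acly, the genes that passed (without library 11, those that also changed by 1 or more on the log2 scale without overlap, up to 10 each way), the whole acetyl-CoA supply list, members of each list that passed or otherwise its 2 most abundant members, and the 3 genes with the largest differences that passed between conditions. The 15 genes of the fit with set, list members at the unadjusted limit and the markers of treatment or set lie outside the rule and were chosen after their values were seen. A few genes that the rule names are not reported here. Alternatives were other pseudocounts, filters and normalizations, fits of fewer groups, covariates, array weights and leaving out each library.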

Additional observations from a re-analysis of the deposited data

Results flagged for a closer look

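Gm5643, an unnamed gene model, was picked out by the test of whether the knockdown effect differs between treatments. With all 6 Bemp libraries its log2 fold change under Bemp minus that under HC was −3.85 (limma adjusted p = 0.0478). Its values were 40.3, 101 and 192 in siAcly Bemp 22, 23 and 87 against 277, 289 and 724 in siC Bemp 10, 83 and 11, so library 11 was the highest. These Bemp values make up only part of the difference, which also rests on the HC groups, whose values are not given here. Without library 11 the adjusted p was 0.197, and with set as a term the difference was −3.28 (95% interval −4.42 to −2.14, adjusted p = 0.119). The cause was not tested.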

How the results depend on the processing

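With all 6 libraries the count of genes passing between siAcly Bemp and siC Bemp was 0. It was 3146 with array weights, a fit whose weights did not converge and which gave library 10 a weight of 24.3 and library 13 a weight of 45.9. It was 52 by the unadjusted p with a log2 limit, and 0 to 1 when each library was left out, the 1 being without library 11. Without library 11 the count was 1. It was 2 in a fit of only the groups compared, 2 with the library number series as a covariate and 2 with array weights, 92 by the unadjusted p with a log2 limit, and 1 to 2 when a further library was left out, the 2 being without siC Bemp 10. Alternatives chosen after seeing the data gave 16 with set as a term, 73 with libraries 13 and 15 also left out, 195 by the unadjusted p with a log2 limit, and 8, 2, 3, 4 and 1 without siC Bemp 10 and 83 and siAcly Bemp 22, 23 and 87. Genes whose knockdown effect differed numbered 0 without library 11, and by the unadjusted p with a log2 limit 87 against Ut, 35 against HC and 42 against SB. Against HC the count was 1 with array weights and 0 to 1 when each library was left out, the 1 being without siAcly Bemp 87. The log2 ratio of mean Acly values was −2.61 and ran from −3.09 to −2.27 when each library was left out. Against the fit without library 11 and without set, 21 list medians and 20 fold changes of named genes moved by 1 SD between replicates or more and 573 and 704 by less, a width within which several medians near 0 changed sign. No paired analysis was possible because the siRNA groups share no library number and no label states a pairing. Numbers of siC and siAcly libraries of 1 treatment that differ by 12 fell in 1 set for 6 of 7 such pairs (not 11 and 23), and by 4 for 3 of 3, so the fit with set is the nearest to a block by number. How far depth limits these counts was not tested.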

Other observations

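Pdk4 and Havcr1 were among the genes next after the limit in the fit with set as a term, and they were chosen after their values were seen. Pdk4, the kinase that restrains pyruvate dehydrogenase, was 115, 78.02 and 59.8 in siAcly Bemp 22, 23 and 87 against 213 and 147 in siC Bemp 10 and 83, and 115 in library 11 (log2 fold change −1.1, standard error 0.22, limma adjusted p = 0.0538 with set as a term). Havcr1, a receptor known as a mark of kidney injury, was 67.4, 10.6 and 65.5 against 12.02 and 12.54, and 80.9 in library 11 (2.07, standard error 0.41, adjusted p = 0.0538). Library 11 thus sat with the siAcly libraries 22 and 87 for Havcr1.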
